A study of Rattus norvegicus with 71 samples.

Results

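Age was compared in mesenteric artery of Brown Norway type, as 24-month arrays against 6-month arrays. The 24-month group was the 6 mesenteric arrays labelled F344xBN and the 6-month group was the 6 mesenteric arrays labelled BN, so 12 of the 71 arrays of the series were compared. BN stands for the inbred Brown Norway rat and F344xBN for the cross of Fischer344 with Brown Norway. The arrays were chosen by the measured signal of genes that separate the strains and not by label, because the 24-month mesenteric arrays went against their strain labels, as described below. The series as a whole holds thoracic aorta and mesenteric artery of both rat types at 6, 15 and 24 months, with 36 mesenteric and 35 aortic arrays. Per the labels, all of them come from a model in which neighbouring arteries were occluded so that a collateral vessel widens, and the labels do not say whether an array holds a collateral or a control vessel. The labels also do not say whether each array is a separate animal, so p-values measure the spread between arrays. The weighed tissue was 8.5 to 22.1 mg in the 24-month group and 6.6 to 11 mg in the 6-month group.

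Mesenteric arteries are small muscular vessels that feed the gut and help set its blood flow. Their wall holds smooth muscle between an endothelial lining and an adventitia of fibroblasts and nerve fibres, and they run embedded in fat. Ageing of such vessels is commonly described as stiffening, with altered elastic fibres, more collagen and mineral deposits, and as a loss of endothelial and smooth muscle function.

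Values are the authors' signals, in arbitrary units on a linear scale, and changes are differences of mean log2 signal, 24-month group minus 6-month group. The 5 genes of the matching rule are given as a description, with no test, since they chose the arrays. Trio, a guanine nucleotide exchange factor, had signals of 212 to 271 (median 255) in the 24-month group labelled F344xBN and 227 to 308 (median 258) in the 6-month group labelled BN. The 6-month arrays labelled F344xBN lay at 2926 to 4342 (median 3436), and the 24-month arrays labelled BN at 2832 to 4019 (median 3282). For Trio the 24-month group labelled F344xBN therefore lay with the BN-labelled 6-month arrays, far below the other 2 groups. Echdc2, which encodes an enoyl-CoA hydratase domain protein, read 38.2 to 155 and 39.6 to 130 in the compared groups, against 765 to 1373 on the 6-month F344xBN arrays. Msrb3, a methionine sulfoxide reductase, read 413 to 561 and 430 to 701 against 2359 to 5755 there. Itga1, the collagen-binding integrin alpha 1 subunit, read 1608 to 2597 and 1841 to 3226 against 4823 to 9620. Prps2, a phosphoribosyl pyrophosphate synthetase, read 2007 to 2634 and 2298 to 3102 against 5481 to 8068. All 5 genes overlapped between the compared groups and were apart from the 6-month F344xBN arrays. These are the separating probe sets, and a further probe set each of Trio and Msrb3 differed by -0.03 and -0.01 between the 6-month groups and did not separate them. Among the 1338 probe sets that separated the strains on the aortic arrays at both 6 and 15 months, 84 (6.28%) were called in the comparison below, against 3.91% of all tested probe sets.

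**Figure D1:**
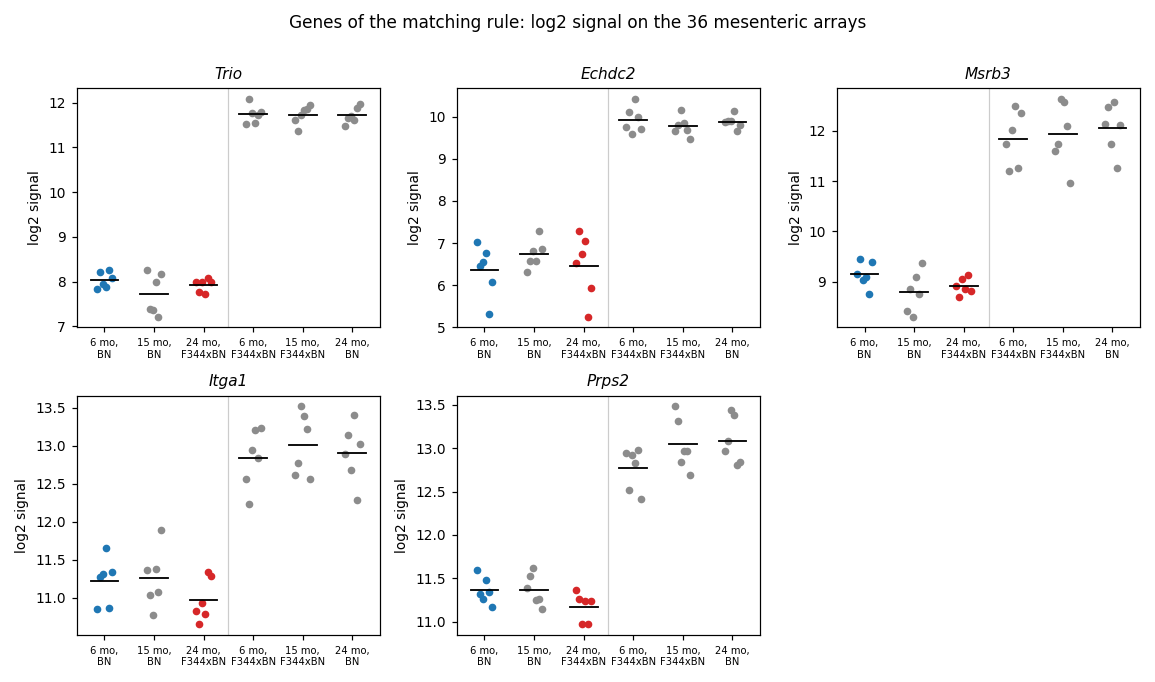
Log2 signal (y axis) of the 5 genes of the matching rule on the 36 mesenteric arrays, by age and strain label (x axis), with 1 point per array and a bar at the group mean; blue is the 6-month group and red the 24-month group compared here. Red points lie with the 2 other groups left of the divider, such as Trio at 212 to 271 signal units, and the 24-month arrays labelled BN lie with the F344xBN arrays on the right.

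Markers of the vessel wall were checked first. The smooth muscle markers Myh11 (39986 to 76186 over both groups) and Tagln (31965 to 65284) were bright, and the endothelial marker Pecam1 read 3128 to 8361. Vwf, made by endothelium, read 4916 to 17798. Markers of fat were also bright, with Adipoq at 4123 to 19717, whereas the exocrine pancreas and gut list had no member above the filter. Array medians (log2) were 8.224 to 8.312 in the 24-month group and 8.271 to 8.41 in the 6-month group, and correlations between arrays were 0.92 to 0.942 within the 24-month group and 0.933 to 0.941 within the 6-month group. In exact two-sided permutation tests of 5 array measures, none passed after adjustment over them. The array median differed by -0.0698 on average (exact p = 0.0325, adjusted 0.0812), tissue mass was 14.85 ± 5.3 against 8.633 ± 1.9 mg (SD, n = 6; exact p = 0.013, adjusted 0.065), and the 3′ over 5′ log2 ratio of Gapdh, a sign of RNA integrity, was 0.889 ± 0.32 against 0.59 ± 0.22 (SD, n = 6; exact p = 0.0931, adjusted 0.155). The smallest p this design allows is 0.00216.

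Of 16717 probe sets tested with limma, 354 (2.12%) rose and 300 (1.79%) fell at 24 months at a Benjamini-Hochberg adjusted p of 0.05, 654 (3.91%) in all, covering 254 and 214 named genes. The size of a called change was 0.5 in the median, and 28 exceeded 1 on the log2 scale, of which 16 rose and 12 fell. All 6 of the 24-month arrays lay beyond the 6-month mean in 641 of the 654. These were called for a large mean difference on the same arrays, so this count is a description and no further support. The groups did not overlap for 371 probe sets that were higher (2.22%) and 341 that were lower (2.04%), 712 in all (4.26%), of which 197 and 165 were also called. The median change over all tested probe sets was -0.008, and 3161 had an unadjusted p under 0.05. The counts depend on which arrays enter the fit. They were 577 and 531 when the 12 arrays were fitted alone, 76 and 94 when all 71 arrays shared 1 estimate of the spread, and 144 and 126 with tissue mass as a covariate. Leaving out array 3, 5 or 6 of the 24-month group left 226, 163 or 228 rises, and leaving out array 3 or 5 of the 6-month group left 224 or 187. The falls dropped to 146 without array 5 of the 24-month group, and to 189, 188 and 191 without array 1, 5 and 6 of the 6-month group.

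The 3 largest called rises were in secreted proteins, Ltbp2, Spp1 and Esm1. Their proximal promoters are shown because these 3 genes rose most and together. Each is the 250 bases before the RefSeq start on build GRCr8, read 5′ to 3′ on the gene's strand. Capitals mark matches on either strand to 1 of 4 motifs: AP-1 (TGANTCA), E-box (CACGTG), GC box (GGGCGG) and TATA box (TATAAA). None of these letters overlapped another motif in the 3 windows. The Ltbp2 window is chr6:110257299-110257548 on the minus strand, that of Spp1 is chr14:5619805-5620054 on the minus strand and that of Esm1 is chr2:46609003-46609252 on the plus strand.
Ltbp2: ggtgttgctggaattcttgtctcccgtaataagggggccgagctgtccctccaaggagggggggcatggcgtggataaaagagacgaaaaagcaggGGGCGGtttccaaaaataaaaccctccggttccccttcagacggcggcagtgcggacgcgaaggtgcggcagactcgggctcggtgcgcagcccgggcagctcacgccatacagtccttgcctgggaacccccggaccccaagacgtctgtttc
Spp1: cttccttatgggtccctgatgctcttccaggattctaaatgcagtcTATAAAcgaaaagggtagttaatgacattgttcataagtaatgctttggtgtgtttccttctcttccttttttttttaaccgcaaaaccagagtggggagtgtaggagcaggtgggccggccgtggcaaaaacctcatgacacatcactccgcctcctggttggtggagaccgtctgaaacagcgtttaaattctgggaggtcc
Esm1: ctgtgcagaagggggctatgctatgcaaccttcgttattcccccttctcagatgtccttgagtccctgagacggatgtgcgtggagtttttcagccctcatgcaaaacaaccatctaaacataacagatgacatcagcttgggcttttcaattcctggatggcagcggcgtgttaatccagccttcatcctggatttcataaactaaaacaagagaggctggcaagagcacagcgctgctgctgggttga
The Ltbp2 window held 1 GC box and the Spp1 window 1 TATA box, and the Esm1 window held none of the 4. No motif was found in more than 1 of the 3. Among 33469 promoter windows of the same length, 30.5% held a GC box, 12.9% a TATA box, 6.34% an AP-1 match and 5.59% an E-box. These matches are letters in a window and carry no statement about a factor.

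Ltbp2, which encodes a secreted glycoprotein of the fibrillin microfibrils, had signals of 1064 to 6309 (median 2478) at 24 months and 337 to 934 (median 588) at 6 months. The groups did not overlap, and the rise was 2.13 ± 0.37 (log2 ± SE; adjusted p = 0.000812). Spp1, or osteopontin, a secreted phosphoprotein of matrix and mineralised tissue, read 1115 to 4497 (median 2224) against 231 to 1485 (median 616). Its groups overlapped at the lowest 24-month array, and the rise was 2.01 ± 0.4 (adjusted p = 0.00325). Esm1, a proteoglycan secreted by endothelium, read 858 to 3214 (median 2469) against 295 to 1040 (median 627), with overlap and a rise of 1.73 ± 0.38 (adjusted p = 0.00753). Esm1 lost its call with tissue mass as a covariate (adjusted p = 0.0735), whereas Ltbp2 and Spp1 kept theirs under each of 13 other settings and without each array in turn.

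Further large rises were in other secreted or matrix-linked genes. Dkk3, a secreted member of the dickkopf family, read 6458 to 15973 (median 8186) against 4039 to 4755 (median 4252). The groups did not overlap, the rise was 1.03 ± 0.16 (adjusted p = 0.000255), and the gene's other tested probe set was 0.93 higher. Ccn5, a matricellular protein known to restrain smooth muscle growth, read 1057 to 3564 (median 2204) against 615 to 1426 (median 999), overlapped, and rose by 1.04 ± 0.23 (adjusted p = 0.00781). Srpx2, a secreted sushi-repeat protein, rose by 1.24 ± 0.36 (adjusted p = 0.0441) and Fibin, a secreted protein, by 1.01 ± 0.28 (adjusted p = 0.0373). Dkk3 and Ccn5 lost their calls when all 71 arrays shared 1 estimate of the spread (adjusted p = 0.236 and 0.235). Srpx2 and Fibin overlapped between groups, and each lost its call when any 1 of 9 arrays was left out, with adjusted p up to 0.145 and 0.105.

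Several of the 12 largest rises were in genes that act inside the cell. Vsnl1, a calcium sensor best known from neurons, read 390 to 936 (median 721) against 248 to 374 (median 277). The groups were just apart, and it rose by 1.24 ± 0.2 (adjusted p = 0.000522). Tes, a LIM protein of focal adhesions, read 4147 to 6199 (median 5269) against 1822 to 3069 (median 2552), with no overlap and a rise of 1.05 ± 0.21 (adjusted p = 0.00262). Its other probe set changed by 0.32, and Tes was not called in the fit of all 71 arrays (adjusted p = 0.254). Cpeb1, which binds messenger RNA and controls its polyadenylation, read 1186 to 2002 (median 1425) against 521 to 913 (median 704) and rose by 1.04 ± 0.22 (adjusted p = 0.00532). Cpeb1 did not overlap, and it lost its call with tissue mass as a covariate (adjusted p = 0.0733). Bhlhe40, a repressor in the circadian clock, rose by 1.15 ± 0.33 (adjusted p = 0.0394). Tmem82, which encodes a transmembrane protein, rose by 1.05 ± 0.31 (adjusted p = 0.0478). Both overlapped between groups and lost their calls when any 1 of 8 and of 10 arrays was left out, with adjusted p up to 0.109 and 0.132.

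**Figure D2:**
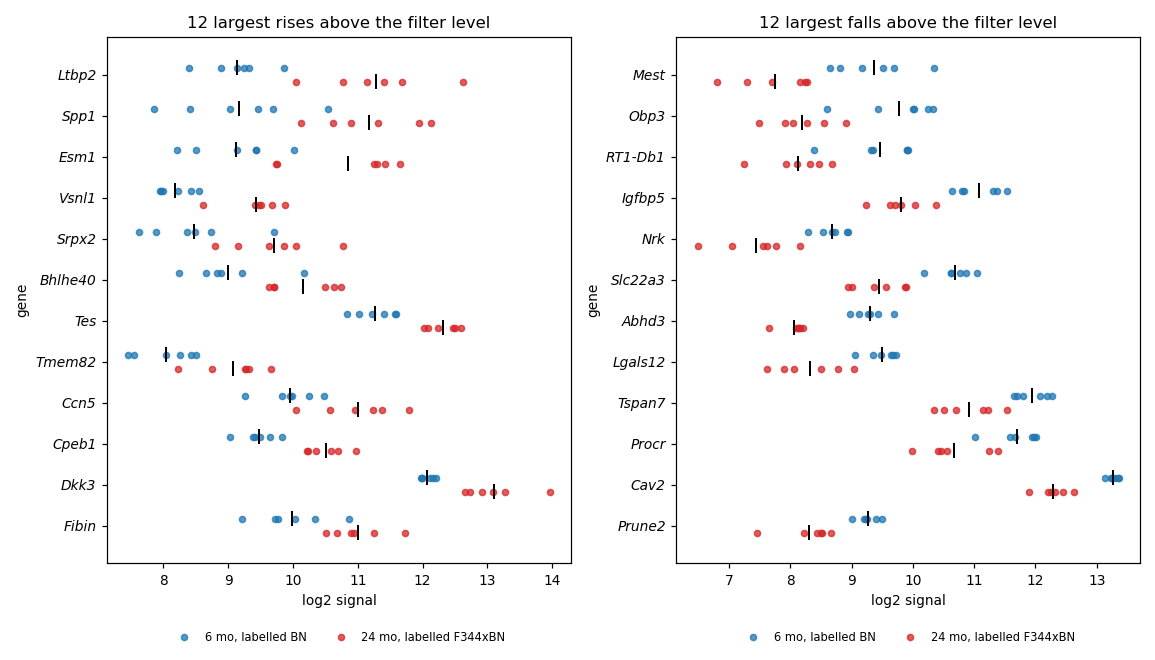
Log2 signal (x axis) on each array for the 12 genes with the largest rise and the 12 with the largest fall among those above the filter level (y axis; Zfhx2 lies under it and is not drawn), with 1 point per array, blue for 6 months labelled BN, red for 24 months labelled F344xBN, and a bar at each group mean. Ltbp2, Vsnl1, Tes, Cpeb1 and Dkk3 among the rises have no overlap of the 6 against 6 arrays.

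The largest called fall with a gene name was that of Zfhx2, a zinc finger homeobox factor, at a dim probe set. It read 14.1 to 64.2 (median 37.4) at 24 months and 66.7 to 187 (median 144) at 6 months, under the filter level of 292.4 in both groups, and fell by 1.85 on the log2 scale (SE 0.47, adjusted p = 0.0198). Among genes at or above that level in at least 1 of the 2 groups, Mest, an imprinted gene of mesodermal and fat tissue, fell most. It read 112 to 310 (median 246) at 24 months and 402 to 1301 (median 651) at 6 months, without overlap, and fell by 1.62 on the log2 scale (SE 0.43, adjusted p = 0.0279). Igfbp5, which binds insulin-like growth factors, read 605 to 1333 (median 864) against 1592 to 2953 (median 2173) and also did not overlap. It fell by 1.28 (SE 0.19, adjusted p = 8.66e-05), and its other tested probe sets changed by -0.39, -0.73 and -0.53. Slc22a3, an organic cation transporter, read 492 to 948 (median 708) against 1160 to 2107 (median 1662), without overlap, and fell by 1.24 (SE 0.25, adjusted p = 0.00354). Abhd3, a phospholipase, read 201 to 296 (median 281) against 501 to 831 (median 625), without overlap, and fell by 1.23 (SE 0.18, adjusted p = 0.000143). Igfbp5, Slc22a3 and Abhd3 kept their calls in every other setting in which they were tested and without each array. Mest lost its call without array 5 or 6 of the 24-month group or array 3, 5 or 6 of the 6-month group, with adjusted p up to 0.0846.

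Cav2, or caveolin 2, a coat protein of membrane pits, read 3809 to 6365 (median 5012) at 24 months and 9022 to 10540 (median 9937) at 6 months. The groups were far apart at this probe set, which fell by 0.98 (SE 0.17, adjusted p = 0.00102). The other Cav2 probe sets changed by -0.11, -0.76 and -0.19, and the gene was not called when its probe sets were averaged (adjusted p = 0.0751). Prune2 fell by 0.96 (SE 0.17, adjusted p = 0.00099) without overlap, but its other probe sets changed by 0.13 and -0.09, and their average was not called either (adjusted p = 0.13). Nrk, a kinase, read 89.7 to 286 (median 193) against 314 to 490 (median 418) and fell by 1.24 (SE 0.22, adjusted p = 0.000939). Tspan7, a tetraspanin of cell membranes, read 1293 to 2968 against 3201 to 4912 and fell by 1.03 (SE 0.21, adjusted p = 0.00414). Neither gene overlapped between the groups, but Nrk was not called in the fit of all 71 arrays (adjusted p = 0.327), nor Tspan7 with tissue mass as a covariate (adjusted p = 0.0519).

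The remaining 4 of the 12 largest falls above the filter level were less stable. Obp3, a lipocalin, fell by 1.57 (SE 0.46, adjusted p = 0.0432), RT1-Db1, a class II major histocompatibility chain, fell by 1.34 (SE 0.36, adjusted p = 0.0291), and Procr, the endothelial protein C receptor, fell by 1.02 (SE 0.27, adjusted p = 0.0259). All 3 overlapped between groups, and they lost their calls without any 1 of 9, 6 and 7 arrays, with adjusted p up to 0.104, 0.0972 and 0.0781. Lgals12, a galectin of fat cells, read 197 to 524 (median 315) against 533 to 842 (median 758). It did not overlap and fell by 1.17 (SE 0.31, adjusted p = 0.0242), but it lost its call without any 1 of 6 arrays (adjusted p up to 0.0688).

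Beside Lgals12 and Mest, the whole white adipocyte list is given. None of its 10 tested members of 12 was called, though 3 fell when the 12 arrays were fitted alone. Of the 10, 9 were lower, and the median change was -0.59, against -0.003 over the 9785 genes tested, of which 2.18% rose and 1.72% fell. Summed signals of the list were 66169 to 119428 at 24 months and 131468 to 154558 at 6 months, so the sums did not overlap. Adipoq, or adiponectin, read 4123 to 15045 (median 13387) against 15164 to 19717 (median 18627), a change of -0.76 (adjusted p = 0.406). Plin1, which coats lipid droplets, read 1867 to 7342 against 7992 to 11371 and changed by -1.1 (adjusted p = 0.148). Both genes were lower on every 24-month array, though with a wide spread within the group. In whole tissue, fewer fat cells and less RNA per fat cell cannot be told apart, and the part of fat in the falls was not tested. All 16 tested genes of fatty acid synthesis and storage were likewise lower with none called (median -0.28), and 2 fell when the 12 arrays were fitted alone. The 8 tested brown adipocyte genes had a median change of 0. A gene could pass the filter on its aortic signal alone. Ucp1, the defining uncoupling protein, was bright in aorta but read 8.59 to 86.6 over both groups here, under the filter level of 292.4. The median therefore carries no statement about brown fat in these arrays.

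Genes of the other cell types of the wall were mostly not called. Of 15 smooth muscle markers 14 were higher and none was called, with a median of 0.26, which became 0.03 after quantile normalization of the arrays. Myh11, the smooth muscle myosin heavy chain, changed by 0.3 (adjusted p = 0.136) and Tagln, an actin-binding protein, by 0.32 (adjusted p = 0.118). Of 16 tested endothelial markers only Esm1 was called, and 12 were lower (median -0.27). Fibroblast markers had a median of -0.03 and none of 11 was called. All 16 tested macrophage markers were lower (median -0.45), none called, with summed signals of 19988 to 46748 against 35727 to 76444. Of 9 listed mast cell genes 2 passed the filter, Cma1, or chymase, which read 32 to 420 against 366 to 941 and changed by -1.67 (adjusted p = 0.067), and Cpa3, a mast cell protease. Of 10 tested nerve and Schwann cell genes, Uchl1, a ubiquitin hydrolase abundant in neurons, was called. Uchl1 read 1521 to 2361 (median 1874) against 837 to 1213 (median 1046), did not overlap, and rose by 0.87 ± 0.17 (adjusted p = 0.00187), while the list's median was -0.07. Uchl1 was not called in the fit of all 71 arrays (adjusted p = 0.427).

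Matrix genes are given by list, and no list was tested as a whole. For these and the lists below, 2.18% of all 9785 genes tested rose and 1.72% fell. Of 22 tested matrix glycoproteins and proteoglycans 4 rose and none fell, with a median of -0.01. Besides Spp1 these were Comp, a cartilage matrix protein (0.69 ± 0.2, adjusted p = 0.0393), and the small leucine-rich proteoglycans Fmod (0.59 ± 0.16, adjusted p = 0.0337) and Bgn (0.59 ± 0.17, adjusted p = 0.0418). Fmod read 17146 to 27000 (median 22519) against 12086 to 17201 (median 15269), overlapping narrowly. Comp, Fmod and Bgn each lost their call when any 1 of 10, 7 and 9 arrays was left out, and Fmod and Bgn also after quantile normalization. Of 13 elastic fibre genes, Ltbp2 and Emilin1, a microfibril-associated glycoprotein (0.53 ± 0.15, adjusted p = 0.0438), rose. Emilin1 was not called when any 1 of 10 arrays was left out (adjusted p up to 0.106). Eln, elastin itself, changed by 0.22 (adjusted p = 0.611).

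Of 28 tested collagens and collagen-processing genes 2 rose and 1 fell, with a median of -0.02. Sparc, a collagen-binding glycoprotein, read 18607 to 27939 (median 22158) against 13070 to 19000 (median 15953), and rose by 0.51 ± 0.11 (adjusted p = 0.00546). The groups overlapped only slightly, the gene's other probe set changed by -0.03, and the average of both was not called. Loxl1, which cross-links elastin, read 10387 to 15840 (median 14148) against 8557 to 11154 (median 9510) and rose by 0.49 ± 0.12 (adjusted p = 0.0131). Col5a3, a type V collagen chain, read 2361 to 4346 (median 3446) against 4354 to 8384 (median 5673), was just apart, and fell by 0.85 (SE 0.18, adjusted p = 0.00546). In the fit of all 71 arrays none of the 28 was called, with adjusted p of 0.205 for Sparc, 0.703 for Loxl1 and 0.0501 for Col5a3. The main fibrillar collagens did not pass, with Col1a1 at -0.35 (adjusted p = 0.387) and Col3a1 at -0.06 (adjusted p = 0.848). None of 13 matrix proteases and inhibitors was called.

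Of 9 tested genes linked to vascular calcification, 2 rose, and the median of the 9 was 0.35. Besides Spp1 this was Mgp, a secreted inhibitor of mineral deposition at 44494 to 65077 (median 52876) against 36971 to 48450 (median 40679). The change was 0.35 ± 0.076 (adjusted p = 0.00598), and it was 0.07 after quantile normalization, where it was not called. Ibsp, bone sialoprotein, is among the 9 through the aortic arrays only. It read 4.07 to 60.9 over both groups, under the filter level of 292.4, and its difference is not given. The median of the 9 includes it, so that median does not describe genes measured above the filter level here alone.

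Growth and signalling genes gave a few single calls. Of 22 Notch and Wnt genes, Dkk3, Ccn5 and the Wnt receptor Fzd2 rose. Fzd2 read 1764 to 3123 (median 2399) against 1237 to 1548 (median 1509), did not overlap, and rose by 0.69 ± 0.16 (adjusted p = 0.013). It narrowly lost its call without array 5 of the 24-month group (adjusted p = 0.0504). Of 21 vessel growth factor genes, the receptor Pdgfrb (0.6 ± 0.14, adjusted p = 0.00994) and the growth factor Pdgfa (0.63 ± 0.18, adjusted p = 0.041) rose. Pdgfrb read 3711 to 5412 (median 4398) against 2792 to 3425 (median 2951), and its 2 other probe sets were 0.65 and 0.67 higher. Pdgfa lost its call when any 1 of 7 arrays was left out. Of 27 genes of the transforming growth factor beta and bone morphogenetic protein pathways, Fstl1, a secreted follistatin-like protein, rose by 0.38 ± 0.083 (adjusted p = 0.00655). In the fit of all 71 arrays none of the Notch, Wnt and growth factor genes was called, with adjusted p of 0.427 for Fzd2 and 0.401 for Pdgfrb, nor was Fstl1 (adjusted p = 0.629). Tgfb1 itself was 0.47 higher and narrowly missed the threshold (adjusted p = 0.0524).

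Cell cycle and senescence genes did not move together. Of 9 tested cell cycle genes only Ccnd1, the G1 cyclin D1, rose (0.65 ± 0.17, adjusted p = 0.0247), and it lost its call when any 1 of 5 arrays was left out. Top2a, a marker of dividing cells, was measured at -1.19 (adjusted p = 0.0922). Of 14 senescence and p53 target genes, Ccng1, a p53 target, rose. It read 5319 to 6683 (median 5502) against 3881 to 4697 (median 4182), without overlap, a change of 0.43 ± 0.088 (adjusted p = 0.00361) that kept its call in every other setting and without each array. Cdkn2c, an inhibitor of cyclin-dependent kinases, fell by 0.5 (SE 0.13, adjusted p = 0.0259). It lost its call without array 5 or 6 of the 24-month group or array 5 of the 6-month group (adjusted p up to 0.0966). Cdkn1a was measured 0.38 higher (adjusted p = 0.66).

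For redox and ion handling, calls were again single. Of 22 antioxidant genes, Gsr, glutathione reductase, rose by 0.76 ± 0.21 (adjusted p = 0.033), and Gpx4, which reduces lipid peroxides, by 0.23 ± 0.058 (adjusted p = 0.0219). Gpx4 read 14314 to 14812 against 11709 to 13673, a narrow 24-month range above the whole 6-month range. Gsr lost its call when any 1 of 9 arrays was left out, and Gpx4 without array 5 of the 24-month group or array 1 or 3 of the 6-month group. Gpx4 also lost it after quantile normalization, in the fit of all 71 arrays and with tissue mass as a covariate (adjusted p up to 0.63). Of 20 ion channel and calcium handling genes, Atp2b1, the plasma membrane calcium pump, rose by 0.35 ± 0.079 (adjusted p = 0.00845), from 2923 to 3563 at 6 months to 3462 to 4346 at 24 months. Atp2b1 lost its call in the fit of all 71 arrays and when its probe sets were averaged (adjusted p up to 0.0856). No gene was called of 9 in nitric oxide and cyclic GMP signalling, of 18 vasoactive receptors and ligands or of 5 NADPH oxidase genes. Nos3, the endothelial nitric oxide synthase, changed by -0.57 (adjusted p = 0.391).

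Metabolic and immune lists held few calls. Dhcr7, the last enzyme of cholesterol synthesis, read 268 to 401 (median 340) against 444 to 747 (median 583), did not overlap, and fell by 0.8 (SE 0.18, adjusted p = 0.00994), the 1 call among 15 genes of that pathway, lost in the fit of all 71 arrays (adjusted p = 0.347). None of 20 fatty acid oxidation, 17 glycolysis, 12 heat shock or 17 endoplasmic reticulum stress genes was called. None of 19 interferon-stimulated, 14 antigen presentation or 13 inflammatory cytokine and adhesion genes was called, and Procr was the only call of 14 in complement and coagulation. None of 20 immediate early genes was called. Among 17 clock genes only Bhlhe40 was, with Dbp 1.25 higher (adjusted p = 0.322) and Npas2 at -1.14 (adjusted p = 0.0514). Of the 17, 11 were higher and 6 lower, with a median of 0.41, which became 0.07 with tissue mass as a covariate. In the fit of the 12 arrays alone 4 of them rose, where 6.63% of all tested probe sets were called. Of the respiratory chain, none of 56 subunit genes was called, and the median change was -0.05.

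Cytosolic ribosomal protein genes showed a small shift. Of 39 tested genes of 78 listed, 37 were higher, 9 rose and none fell, with a median of 0.23. Over all 9785 genes tested 2.18% rose and 1.72% fell, with a median of -0.003. Rpl19, a large subunit protein, read 31798 to 50023 (median 42788) against 29915 to 36926 (median 33711), and rose by 0.33 ± 0.084 (adjusted p = 0.0198). It lost its call without array 5 or 6 of the 24-month group or array 1 of the 6-month group. Rps15, of the small subunit, rose by 0.31 ± 0.068 (adjusted p = 0.00796), without overlap at 32235 to 36337 against 24271 to 30206. After quantile normalization none of the 39 was called, 28 were higher and the median was 0.03, so the shift depends on how the arrays are scaled. With tissue mass as a covariate 1 of the 39 was called. In the other mesenteric pair 20 of them rose (median 0.25), and in BN aorta 1 did (median 0.11).

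**Figure D3:**
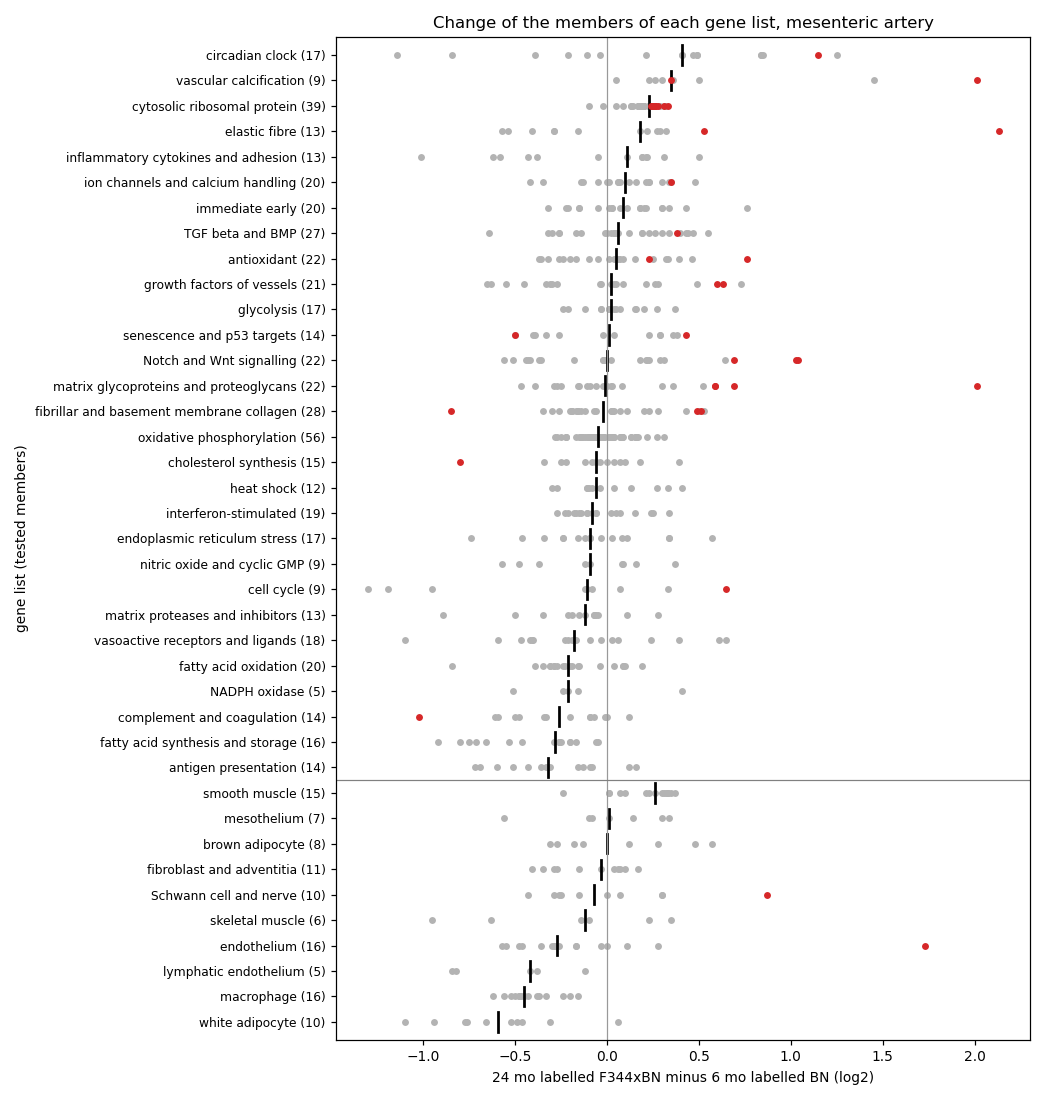
Change at 24 months labelled F344xBN against 6 months labelled BN (x axis, log2) of every tested member of each gene list with at least 5 tested members (y axis, number tested in parentheses), with red points for called members, grey for the others and a black bar at the list's median. Cell type lists stand below the line; the white adipocyte and macrophage lists lie lowest, at medians of -0.59 and -0.45, with no called member.

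The levels in the other mesenteric groups place these changes, as a description only, since the groups share arrays with the comparison. Among the 354 rises, the 24-month group had the highest of the 6 group means in 282 and the 6-month group the lowest in 178. Among the 300 falls, the 24-month group had the lowest mean in 216 and the 6-month group the highest in 197. The 15-month BN mean lay between the 2 compared means in 444 of the 654, beyond the 6-month mean in 124 and beyond the 24-month mean in 86. The 654 were called because the 2 compared means lie apart, which by itself favours such counts. The share over all tested probe sets was not taken, so the counts carry no statement about a gradual course. Ltbp2 was 224 to 611 (median 349) at 15 months in BN, below its 6-month median, and Spp1 was 104 to 360 (median 217) and Cpeb1 297 to 635 (median 375) there. For these 3 genes all 15-month BN arrays lay below all 24-month arrays of the pair. Slc22a3 at 15 months was 1206 to 2288 (median 1566), level with 6 months.

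Raph1, which encodes an Ena/VASP-binding adaptor of the cell edge, shows another pattern. It read 671 to 993 (median 782) in the 24-month group and 1246 to 1711 (median 1355) in the 6-month group, did not overlap, and fell by 0.83 (adjusted p = 1.46e-05). The 15-month arrays labelled BN read 597 to 815, the 6- and 15-month arrays labelled F344xBN 505 to 811 and 704 to 855, and the 24-month arrays labelled BN 1364 to 1787. For this gene the 6- and 24-month arrays labelled BN stood together above the 4 other groups. Kmt5a, a histone methyltransferase, lay on the low side there, at 661 to 1099 and 743 to 1035 on the 6- and 24-month arrays labelled BN and with medians of 1099 to 1295 in the 4 other groups. Its groups overlapped at the edges. Fryl had the same order, with medians of 573 and 561 against 944 to 1079. The labels give no processing batch, so a batch shared by those 2 BN-labelled groups cannot be told apart from a difference between groups. The Gapdh 3′ over 5′ log2 ratios were 0.24 to 0.86 on the 6-month BN arrays, 0.4 to 0.83 on the 24-month BN arrays, 0.91 to 1.14 at 15 months in BN, 0.51 to 1.37 in the 24-month group compared here, and 0.45 to 1.91 and 0.16 to 1.06 on the 6- and 15-month F344xBN arrays. Their part in these genes was not tested. With that ratio as a covariate the whole comparison had 442 rises and 391 falls, and only 482 of the 654 calls were among them.

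**Figure D4:**
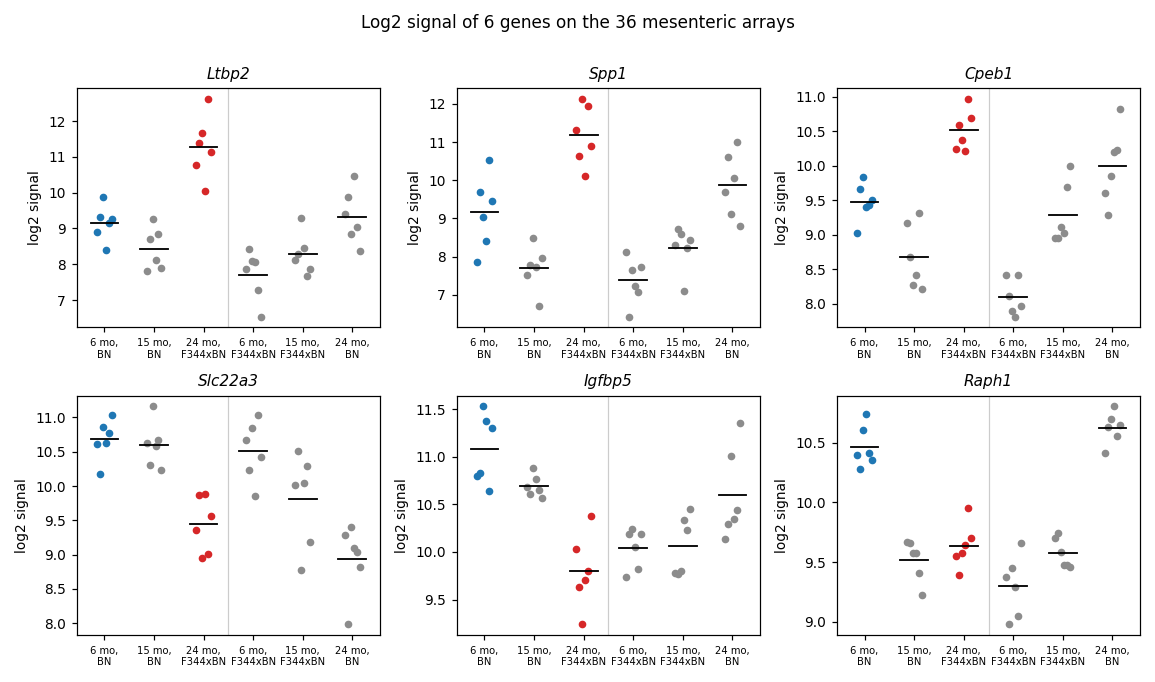
Log2 signal (y axis) of 6 genes on the 36 mesenteric arrays, by age and strain label (x axis), with 1 point per array and a bar at the group mean; blue and red mark the compared groups. Ltbp2, Spp1 and Cpeb1 are highest in the red group and lower at 15 months than at 6 in BN, whereas Raph1 is high only on the 6- and 24-month arrays labelled BN.

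The comparison that the labels give, 24-month arrays labelled BN against the same 6-month arrays, called 234 higher (1.4%) and 239 lower (1.43%) probe sets, 473 (2.83%) in all. It shares the 6-month arrays, so values are set side by side only. Dkk3 changed by 0.85 there (adjusted p = 0.000939), Vsnl1 by 0.82 (adjusted p = 0.0168), Ccng1 by 0.42 (adjusted p = 0.00365), Loxl1 by 0.48 (adjusted p = 0.0144) and Slc22a3 by -1.75 (adjusted p = 1.98e-05). Ltbp2 changed by 0.19 (adjusted p = 0.895), Spp1 by 0.72 (adjusted p = 0.444), Tes by -0.07 (adjusted p = 0.938), and Igfbp5 by -0.48 (adjusted p = 0.186). Trio differed by 3.68 in that pair, against -0.11 in the pair matched by marker level. For scale, the 6-month arrays labelled F344xBN differed from those labelled BN in 846 higher (5.06%) and 958 lower (5.73%) probe sets, 1804 (10.8%) in all.

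The other pair of mesenteric groups, 24 months labelled BN against 6 months labelled F344xBN, shares no array with this comparison. It called 589 higher (3.52%) and 557 lower (3.33%) probe sets, 1146 (6.86%) in all. Of these, 124 were called here as well, 19% of the calls here and 10.8% of those there, 73 of them in the same direction. Over the 654 probe sets called here, 328 (50.2%) moved the same way, with a Pearson correlation of 0.25 across probe sets that come from the same arrays and are not independent. Over all 16717 tested, 48.3% moved the same way and the correlation was 0.05. The change itself differed between the pairs for 632 probe sets (3.78%), with 313 more positive here (1.87%) and 319 more negative (1.91%), among them 239 of the 654. The 654 were called for a large change here, which is part of this difference. That favours a high count among them, so the 239 are a description and no further support. An offset shared by the 6- and 24-month arrays labelled BN would move the changes of the pairs in opposite directions. Such an offset cannot be told apart here from a difference in ageing between the pairs. Spp1 rose by 2.51, Cpeb1 by 1.9, Ltbp2 by 1.62 and Dkk3 by 0.95 in the other pair, with adjusted p of 0.000248, 1.76e-06, 0.0065 and 0.000416, and their differences between pairs were not called.

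Genes for which the change differed were led by Mga, Raph1, Gnas, Igfbp5 and Tns1 on the negative side. Raph1 fell here and rose by 1.32 in the other pair, a difference of -2.15 ± 0.15 (adjusted p = 1.08e-11). For Igfbp5 the difference was -1.84 ± 0.26 (adjusted p = 5.29e-05). Tns1, a focal adhesion protein, changed by -0.44 here (adjusted p = 0.242) and rose by 1.32 there. Mga, a transcription factor partner of Max, changed by -0.74 here and rose by 1.43 there, and Gnas, the stimulatory G protein alpha subunit, by -0.81 and 1.07 at a probe set that read 58.2 to 263 here. On the positive side were Pcp4l1, Rsbn1, Prodh, Fryl and Myo18b. Fryl rose by 0.79 here (adjusted p = 0.0107) and fell by 0.79 there, and Rsbn1 rose by 0.8 (adjusted p = 0.0498) and fell by 0.86. Pcp4l1, Prodh, a proline oxidase, and Myo18b, an unconventional myosin, fell in the other pair and were not called here. The adjusted p of these 10 differences ran up to 0.0428, and the macrophage list, at a median of -0.45 here, was at 0.56 there.

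In aorta labelled BN, Trio read 194 to 278 at 6 months and 120 to 260 at 24 months, on the BN side at both ages. Prps2, also of the matching rule, read 305 to 791 and 695 to 1367 there. It was thus 0.9 higher at 24 months, toward the F344xBN side, which lay 2.05 above BN in aorta at 6 months. Echdc2, Msrb3 and Itga1 changed by 0.2, -0.57 and 0.01 in BN aorta. There, 24 against 6 months called 257 higher (1.54%) and 229 lower (1.37%) probe sets, 486 (2.91%) in all, from the fit of all 71 arrays. The brown fat marker Ucp1 read 74628 to 92267 at 6 months and 73208 to 102351 at 24 months in aorta, and its part in the differences from mesenteric artery was not tested. Both comparisons called 59 probe sets, 9.02% of the calls here and 12.1% of those in aorta, of which 55 moved the same way. The calls here came from the fit of the 36 mesenteric arrays, so this overlap joins unlike fits. Over the 654 called here, 517 (79.1%) had the same direction in aorta, against 58.5% of all tested probe sets, with correlations of 0.61 and 0.22 across probe sets. Cpeb1 rose by 1.86 in aorta (adjusted p = 1.17e-07), from 125 to 282 at 6 months to 475 to 867 at 24 months. Spp1 rose by 1.54 (adjusted p = 0.0317), Comp by 1.58 (adjusted p = 0.011) and Mgp by 0.36 (adjusted p = 0.037). Ltbp2 was measured 1.06 higher in aorta (adjusted p = 0.159).

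The change differed between mesenteric artery and BN aorta for 59 probe sets (0.353%), 19 more positive (0.114%) and 40 more negative (0.239%) in mesenteric artery. The count was 391 when the 24 arrays of the 4 groups were fitted alone. For the other mesenteric pair, a fit of its own 24 arrays in 4 groups gave 561 differences. The 59 came from the fit of all 71 arrays, and the 632 given above from the fit of the 36 mesenteric arrays. The 59 and the 632 are therefore not on like settings, and their sizes are not compared. Inhbb, the activin beta B subunit, rose in aorta by 3.43 and changed by -0.64 in mesenteric artery, where it read 169 to 470 against 358 to 703. The difference was -4.07 ± 0.65 (adjusted p = 0.000363). Nnat, an imprinted proteolipid, Tfpi, the tissue factor pathway inhibitor, Gng2, a G protein gamma subunit, and Dpep1, a membrane dipeptidase, rose in aorta by 2.14, 2.56, 2.17 and 2.17. None of these 4 was called in mesenteric artery, at -0.79, -0.25, -0.37 and -0.09, and adjusted p of the differences ran from 2.94e-05 to 0.0396. Adcy3, an adenylate cyclase, Maged1, Slc29a1, a nucleoside transporter, Kmt5a and Limd1, a LIM protein, differed the other way, by 0.91 to 1.03. Kmt5a and Limd1 rose in mesenteric artery, by 0.6 (adjusted p = 0.0023) and 0.37 (adjusted p = 0.0393). Of the large changes here, Igfbp5 differed from aorta, where it changed by 0.13, by -1.41 ± 0.29 (adjusted p = 0.00792), and Raph1, which rose by 0.63 in aorta, by -1.46 ± 0.26 (adjusted p = 0.00151).

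In all, 11 of the 16717 tested probe sets were called in the same direction in all 3 comparisons, 8 of them with a gene name. This count joins the fit of the 36 mesenteric arrays with that of all 71 arrays. Cpeb1, Spp1, Comp, Tmem204, Gstp1 and Anxa7 rose in all 3, and Agpat3 and Nrep fell. Gstp1, a glutathione transferase, changed by 0.71, 0.57 and 0.53, Tmem204, a membrane protein, by 0.67, 0.47 and 0.73, Anxa7, an annexin, by 0.3, 0.42 and 0.37, in the order of this pair, the other mesenteric pair and BN aorta. Nrep fell by 0.81, 1.03 and 0.72, and Agpat3, an acyltransferase of phospholipid synthesis, by 0.52, 0.54 and 1.11. These genes were chosen after their values were seen. Comp lost its call here when any 1 of 10 arrays was left out, and Cpeb1 with tissue mass as a covariate.

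**Figure D5:**
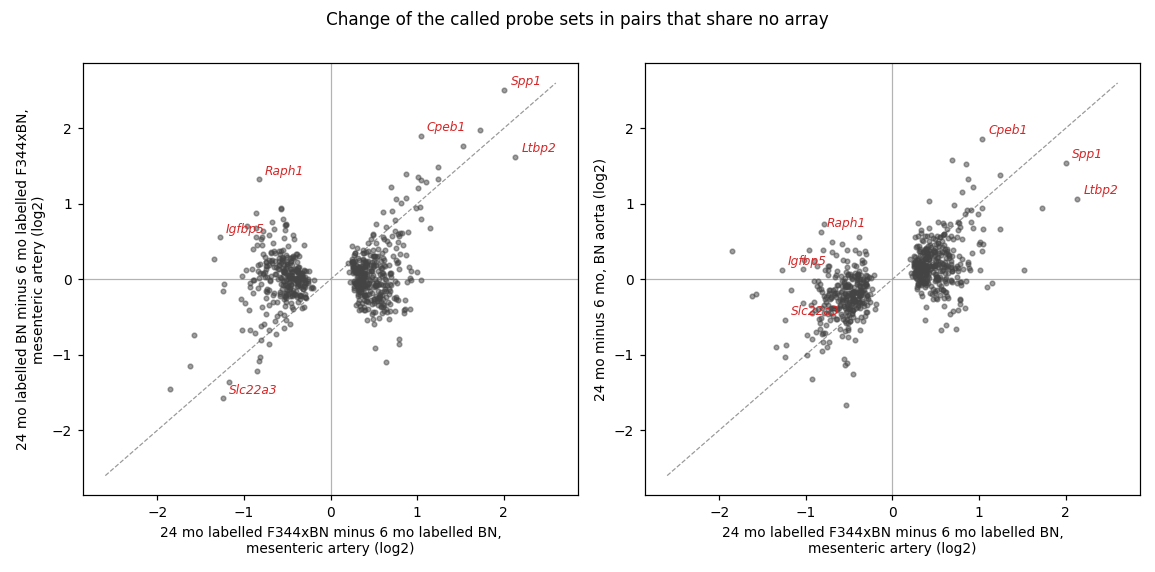
Change at 24 against 6 months of the 654 called probe sets (x axis, log2, this mesenteric pair) against the change in the other mesenteric pair (left y axis) and in BN aorta (right y axis), with 1 point per probe set and a dashed line of equal change. In the left plot 50.2% of the points have the same direction in both pairs and in the right plot 79.1%.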

How the data were processed

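The deposited table holds 1-colour Affymetrix signal intensity values that the authors made with GCOS and MAS5, per the submitters' processing notes, with no version given. The intensities are linear, all above 0, and each array's mean after trimming 2% at each end is close to 1000, so arrays were scaled before deposit. Of 31099 probe sets, 57 controls were left out, and 16717 were tested because their mean log2 signal in mesenteric or aortic arrays reached 8.19 (signal 292.4). Gene symbols came from the platform annotation, where 20832 probe sets have a single symbol, 436 have more than 1 and 9780 have none.

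The log2 of each signal was taken with nothing added to it. The change was fitted with limma 3.58.1 in R 4.3.3 over all 36 mesenteric arrays in 6 groups (lmFit, eBayes with trend and robust, statmod 1.5.0), with Benjamini-Hochberg adjustment over all tested probe sets at 0.05. All adjusted p in the text are from limma. Comparisons with aorta used the fit of all 71 arrays. The script was tested on simulated data. The number of arrays limits the precision. Named were the 12 genes with the largest called rise and fall among those whose mean in the higher group reached the filter level (1 called gene, Zfhx2, did not and is given beside them), up to 4 genes of each list with the smallest p, and up to 5 genes with the largest difference from another pair in each direction, with a list gene taken by its brightest tested probe set. A few others were named after their values were seen, including called members of lists and defining cell type markers. The arrays compared and the gene lists were chosen with earlier results of these data known. Alternatives were quantile normalization, an offset of 64, other filters, array weights, other sets of arrays, covariates, averaged probe sets and leaving out each array. Promoters are RefSeq sequences on GRCr8.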

Additional observations from a re-analysis of the deposited data

Results flagged for a closer look

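In 48 called genes, both groups were examined for a single array that stood apart by Dixon's criterion, and 5 of 96 groups had one, near the 1 in 20 that chance gives. Vsnl1 read 390 on array 4 of the 24-month group against 685 to 936 on the others. Fzd2 read 1237 on array 1 of the 6-month group against 1441 to 1548. Cdkn2c read 3630 on array 5 of the 6-month group against 2294 to 2597. Prune2 read 176 on array 3 of the 24-month group with the highest of the group at 406, and Abhd3 read 201 on array 5 of that group against 273 to 296.

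The change differed from that in the other mesenteric pair for 8 of these 48 genes, by the limma test of the difference, against 3.78% of all tested probe sets. The 48 were called for their change here, which is part of that difference and favours such a count. The genes are therefore listed as a description. It was more positive here for Tes (1.06, adjusted p = 0.0342), Sparc (0.95, adjusted p = 0.000262) and Atp2b1 (0.52, adjusted p = 0.00602). It was more negative here for Prune2 (-1.68, adjusted p = 5.4e-05), Cav2 (-1.1, adjusted p = 0.00834), Abhd3 (-1.18, adjusted p = 0.00817), Nrk (-1.09, adjusted p = 0.0403) and Igfbp5 (-1.84, adjusted p = 5.29e-05). Against BN aorta the change differed for Ccng1 (0.62, adjusted p = 0.037) and Igfbp5 (-1.41, adjusted p = 0.00792). The share over all tested probe sets was 0.353% there, and the same limit holds.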

How the results depend on the processing

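Against 354 rises and 300 falls, counts were 911 and 914 with array weights, 577 and 531 from the 12 arrays alone, 76 and 94 from all 71 arrays in 1 fit, 144 and 126 with tissue mass as a covariate, and 637 and 543 with a covariate for the poly-A controls. Without the filter 215 rose. Leaving out 1 array gave 163 to 410 rises and 146 to 321 falls. Of the 654 calls, 566 were shared with quantile normalization and 482 with the Gapdh ratio as a covariate. The mass covariate shared 244, and the fit of all arrays, which had fewer calls, shared 164. Differences from the other mesenteric pair numbered 395 instead of 632 under the stricter filter, which tests fewer probe sets. Differences from BN aorta numbered 36 under that filter and 391 from the 24 arrays of the 4 groups alone, instead of 59. The cause of the other shifts was not tested. Of 48 named called genes, 7 kept their call in every alternative and without each array (Ltbp2, Spp1, Vsnl1, Ccng1, Abhd3, Slc22a3 and Igfbp5), 41 lost it in at least 1 alternative, 21 lost it without at least 1 array, and 0 reversed. No paired analysis was possible because the labels give no replicate numbers shared between groups.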
